A study of Bos taurus with 40 samples.

Results

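*GSTT1* (ENSBTAG00000000170) encodes a glutathione transferase of the theta class. It was taken by its identifier from the expression values of cattle that differed in residual feed intake (RFI), and it was 1 of the 8531 genes listed in any sample. RFI is the feed an animal eats above or below what its weight, growth and fat gain predict, and a low value marks an efficient animal. RNA was sequenced from liver and skeletal muscle of purebred Simmental bulls and heifers in 40 samples, 5 of high and 5 of low RFI for each sex and tissue. The animals came from dams and sires that were themselves divergent for RFI, were carried by crossbred recipients after embryo transfer, and were housed at about 15 months of age on ad libitum concentrate with some grass silage. Both tissues were sampled later, at the end of the period in which feed intake was recorded. Liver was taken as a punch biopsy, which may hold several cell types, and fewer cells of a type and less RNA per cell cannot be told apart in such samples.

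Glutathione transferases join the tripeptide glutathione to reactive and foreign compounds, which are then easier to excrete, and some also reduce organic peroxides. The liver is the main organ of this chemistry. Theta-class enzymes act on small molecules such as halogenated methanes and are an old branch of the family. In people *GSTT1* is known for a common allele in which the gene is missing. In the RefSeq cattle annotation the gene stands near other theta-class genes. *GSTT2* and then *DDT*, a tautomerase gene, lie on one side, and *LOC132342556* and then *GSTT4* on the other. The files pair no identifier with a symbol, so these neighbours and the rest of the family could not be found in them. Whether reads of such relatives were counted to *GSTT1* was not tested.

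*GSTT1* was listed in all 20 liver samples and in 0 of the 20 samples labelled muscle. Samples of the same sex and tissue all list the same number of genes, so a listing describes the set and not each sample. Bull muscle samples M12, M6, 2712 and M74 were set apart beforehand for a profile of the other tissue. They do not list the gene either. The deposited tables hold only part of the genes, and in heifer muscle the listed gene with the lowest mean had 7.37 CPM (counts scaled to the size of the library). A gene that is not listed may thus have been expressed at a low level. For the samples labelled muscle, no level of *GSTT1* and no difference from liver can be given. Both liver sets had similar lowest means, 8.81 CPM in bulls and 7.50 CPM in heifers.

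Of the 20 liver samples 3 heifer samples were set apart because they held the profile of muscle. The sum of 27 genes with a more than 32-fold higher mean in heifer muscle than in bull liver was 46.4% of the muscle level in high RFI heifer 2728, 80.4% in low RFI heifer L16 and 114% in low RFI heifer L58. In the other 17 liver samples, called clean here, the same sum was at most 0.613%, and the 33 genes that marked liver stood at 92.9 to 113% of the level in bull liver. The genes of this check were picked by fold, as the symbols of defining liver and muscle markers could not be matched to the files.

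In the 5 high RFI bulls *GSTT1* was at 14.4 CPM in 2701, 16.6 in 68, 17.4 in 2703, 18.7 in 2641 and 23.4 in 64. In the 5 low RFI bulls it was at 6.33 CPM in 2713, 7.18 in 2669, 9.41 in 2723, 10.6 in 2712 and 13.4 in 2659. All low RFI bulls stood below all high RFI bulls, and a gap of 0.979 CPM separated the groups. This gap lies within counting error, since the 95% interval of 2659, 11.6 to 15.4 CPM, overlaps that of 2701, 12.6 to 16.3 CPM (exact Poisson, counting error only). High RFI bulls had 197 to 380 reads of the gene, with 5.13 to 7.12% of counting error. The fewest reads were in low RFI bull 2713, 15 among 2368340, with an interval of 3.54 to 10.4 CPM that ends below the lowest value in high RFI bulls.

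In the 4 clean high RFI heifers *GSTT1* was at 15.2 CPM in 2704, 20.9 in L60, 24.3 in 2705 and 30.4 in 2670. In the 3 clean low RFI heifers it was at 7.46 CPM in 2660, 9.30 in L59 and 39.8 in 2632. Among the clean heifers the groups overlapped through a single animal. Heifers 2660 and L59 stood below every high RFI heifer, while 2632 stood above every clean liver sample of either sex. The high value of 2632 rested on 734 reads, with an interval of 36.9 to 42.8 CPM, and that of the next animal, 2670, reached 32.3 CPM. Its sum of muscle-marking genes was 0.193%, within the range of the other clean samples.

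**Figure D1:**
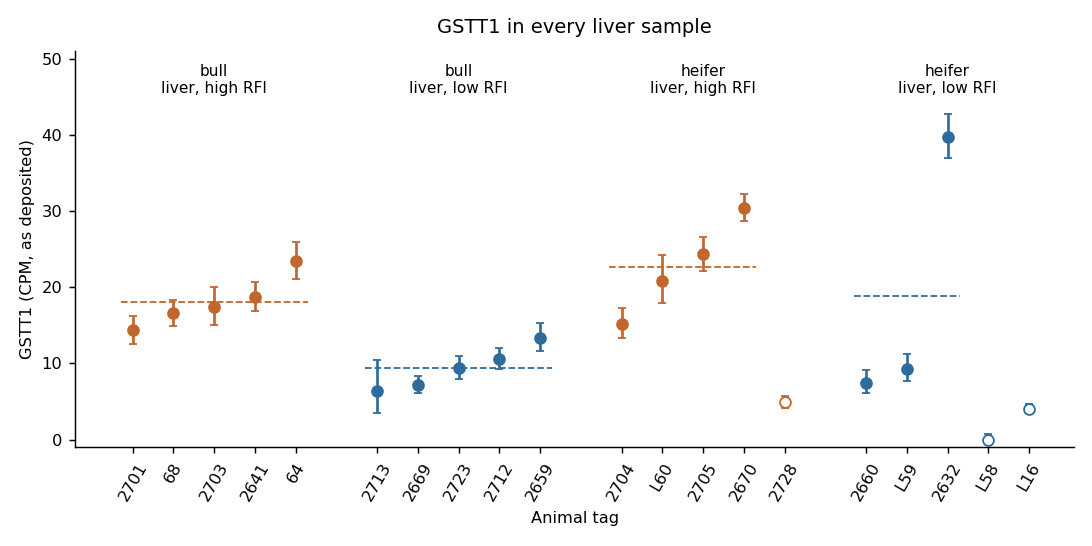
*GSTT1* in CPM as deposited (vertical axis) for each liver sample by animal tag, with 95% Poisson intervals of the reads as bars, group means of clean samples as dashed lines, and the 3 samples with a muscle profile as open circles. The low RFI bulls sit between 6.33 and 13.4 CPM, all below the high RFI bulls, whereas low RFI heifers include both the lowest clean heifer at 7.46 CPM and the highest at 39.8 CPM.

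The samples set apart had the lowest values of all. *GSTT1* was at 4.89 CPM in 2728 (179 reads), at 4.07 CPM in L16 (248 reads) and at 0 in L58, where no read was found among 4787544, which allows a level of up to 0.627 CPM (3 reads, a one-sided limit, while the two-sided interval drawn in the plot of samples ends at 0.771 CPM). These 3 values followed the amount of liver signal in the samples. The genes that mark liver stood at 47.1% of the level in bull liver in 2728, at 24.4% in L16 and at 0.748% in L58. Set against that share, *GSTT1* was at 10.4 CPM in 2728 and 16.7 CPM in L16. On the same scale the sample labelled high RFI heifer 2728 stood below every clean high RFI heifer (14.8 to 29.8 CPM). The sample labelled low RFI heifer L16 stood above high RFI heifer 2704 (14.8 CPM). These values credit all reads of the gene to liver. Whether the liver signal in 2728 and L16 came from the animal and RFI group on the label could not be settled. In the clean samples the gene was never near absence, since the lowest value was 6.33 CPM in a sample where 3 reads are worth 1.27 CPM.

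As group means, *GSTT1* was at 9.37 CPM ± 2.81 (SD, n = 5) in low RFI bulls, 18.1 ± 3.37 (SD, n = 5) in high RFI bulls, 18.8 ± 18.1 (SD, n = 3) in low RFI heifers and 22.7 ± 6.39 (SD, n = 4) in high RFI heifers. Neighbours in this order differed less than their spread, except the bull groups. Exact two-sided permutation tests on log2(CPM + 1) were run for the 6 pairs of groups, with p-values adjusted over the pairs. They used CPM as deposited, without the scaling of the later fits. Low RFI bulls differed from high RFI bulls (adjusted p = 0.0238) and from high RFI heifers (adjusted p = 0.0238) by these permutation tests. The study had listed the gene for a difference in these same bulls, so neither p-value is independent evidence. For high RFI bulls against low RFI heifers the adjusted p was 0.589 by the exact test, and for low against high RFI heifers it was 0.471. The median of the low RFI heifers, 9.30 CPM, would place them beside the low RFI bulls instead.

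In bulls the study had listed *GSTT1* for a difference in these same animals, so that the comparison is no independent evidence of its direction. After scaling of the samples to a common level by a trimmed mean of M values (TMM), low RFI bulls differed from high RFI bulls by -0.86 on the log2(CPM + 1) scale (SE 0.19, 95% confidence interval -1.27 to -0.45). The exact two-sided permutation test of the gene alone gave p = 0.00794, the smallest that 5 against 5 animals allow. In limma over all 7363 listed genes the gene had the third smallest p but an adjusted p of 0.643, and at the study's threshold of 0.1 no gene was called (0 of 7363, 0%), with 555 genes below an unadjusted p of 0.05. The study reported a change in the same direction and of similar size. It also found a positive correlation of *GSTT1* with RFI value in these bulls. The study itself called *GSTT1* at this threshold with edgeR on counts, over more genes than are listed here. The absence of a call in limma was thus obtained with another test and another set of genes. Without overlap, 38 genes (0.516% of those tested) were lower in all low RFI bulls than in all high RFI bulls, and *GSTT1* was 1 of them. The fold change was larger in size for 0.312% of the genes. Both bulls with short tags, 64 and 68, were of high RFI, and among bulls with 4-digit tags the difference was -0.81 (3 against 5 animals, exact permutation p = 0.0536).

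Heifers were not used to list the gene. In the 7 clean heifers the difference of low from high RFI was -0.52 (SE 0.51, 95% confidence interval -1.67 to 0.63), with an exact permutation p of 0.457 and an adjusted p of 1.000 in limma over 7231 genes. The interval holds both a change as large as in bulls and a rise. No gene was called in limma (0 of 7231, 0%), and 181 had an unadjusted p below 0.05. In 8 of the 12 pairs of a low and a high RFI heifer the low RFI animal had the lower level. Without heifer 2632, which was singled out after its value had been seen, the difference was -1.26 (95% confidence interval -1.85 to -0.67). The exact permutation p was then 0.0667, the smallest that 4 against 2 animals allow, and 5.46% of all genes were also lower in both remaining low RFI heifers than in all 4 of high RFI. Leaving out the other low RFI heifers moved the value the other way, to -0.08 without 2660 (exact permutation p = 0.867) and to -0.21 without L59 (exact permutation p = 0.800).

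In a fit over the 17 clean samples with sex as a covariate, low RFI animals differed from high RFI animals by -0.72 (SE 0.26, 95% confidence interval -1.26 to -0.18). The permutation of RFI labels within each sex gave an exact p of 0.0286, and limma an adjusted p of 0.897, with no gene called (0 of 7045, 0%) and 350 below an unadjusted p of 0.05. As the fit holds the bulls for which the gene was listed, the p of 0.0286 is no independent evidence. In the clean heifers alone the exact permutation p was 0.457. Among animals with 4-digit tags the difference was -0.59 (exact permutation p = 0.148), and the exact p was 0.0508 to 0.0646 when bull 64, 2669 or 2713 or heifer L59 or 2660 was left out. The call in limma turned on heifer 2632. Without it the difference was -1.003 (SE 0.16), and *GSTT1* was the single gene called among 7045 (0.0142%, adjusted p = 0.0636). That value is a description and no test, because the animal was left out for its level, its removal leaves the RFI groups of both sexes without overlap, and the fit holds the bulls for which the gene was listed.

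The effect of RFI was not shown to differ between the sexes. The difference in heifers minus that in bulls was 0.34 (SE 0.53, 95% confidence interval -0.77 to 1.46, exact permutation p = 0.659, adjusted p = 0.961 in limma). That permutation shuffled RFI labels within each sex. It thus assumes no effect of RFI in either sex and is not an exact test of equal effects. No gene was called for such a difference (0%), with 256 below an unadjusted p of 0.05, and the sign turned to -0.41 without heifer 2632 and to -0.31 with the samples set apart. The level itself was 0.46 higher in heifers than in bulls with RFI as a covariate (SE 0.26, 95% confidence interval -0.08 to 1.01, exact permutation p = 0.119, adjusted p = 0.439 in limma). Here 277 of 7045 genes were called (3.93%), 144 higher and 133 lower in heifers, or 116 and 161 in CPM as deposited, and *GSTT1* was not among them. Without heifer 2632 the value fell to 0.14, and with the samples set apart it was -0.19.

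**Figure D2:**
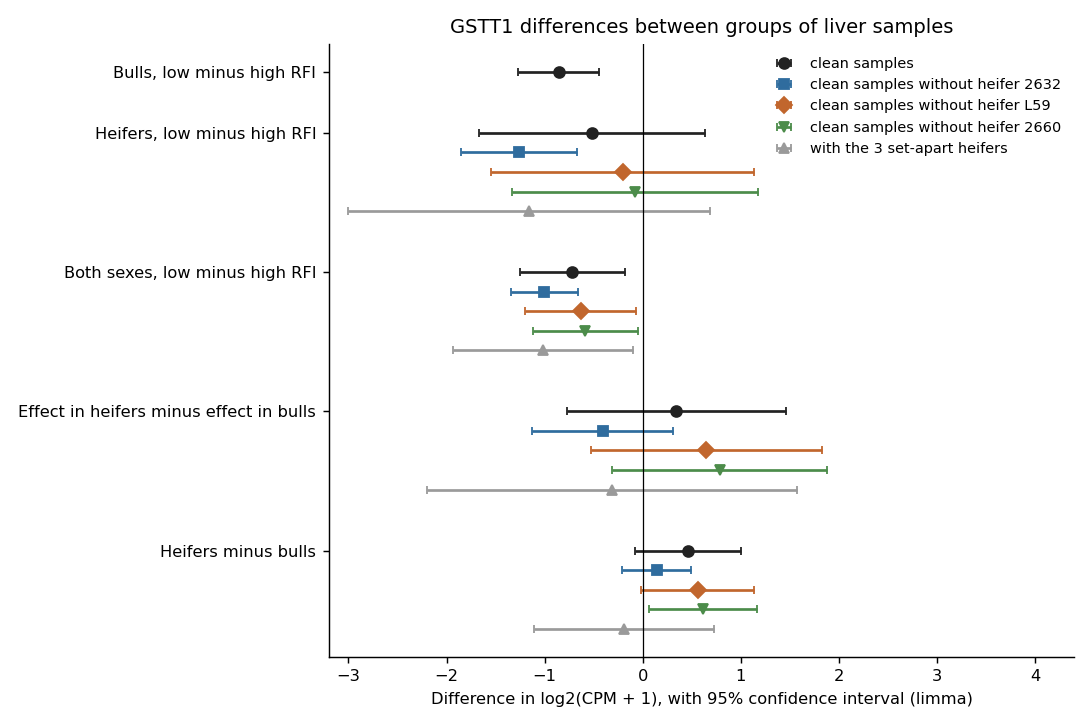
Differences of *GSTT1* between groups of liver samples in log2(CPM + 1) (horizontal axis) with 95% confidence intervals from limma, for the clean samples (circles), the clean samples without heifer 2632 (squares), L59 (diamonds) or 2660 (triangles pointing down), and all liver samples (triangles pointing up). The bull interval of -1.27 to -0.45 lies below 0, the heifer interval of -1.67 to 0.63 crosses it, and the heifer value moves to -1.26 without 2632 and to -0.08 without 2660.

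*GSTT1* varied between animals more than most genes. Its SD of log2(CPM + 1) was 0.553 in the 10 bulls, above that of 97.1% of the 7045 genes listed in both liver sets, whose median was 0.212. In the 7 clean heifers the SD was 0.853, above that of 99.1% of the genes, with a median of 0.240. Among genes with a mean within a factor of 2 of its own the shares were 97.5% in bulls and 99.2% in heifers. Counting error had a median of 0.0977 on the log2 scale in bulls and 0.0933 in heifers, and at most 0.373 in bulls, in 2713, and 0.145 in heifers.

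With the means of the RFI groups removed, the SD fell to 0.338 in bulls, above 86.6% of genes, and was 0.884 in heifers, above 99.2% of genes. The value in heifers rested on 2632, without which it was 0.371, above 87.7% of genes. In CPM the highest clean heifer had 5.33 times the level of the lowest, and the highest bull 3.70 times. Without 2713, the bull of lowest depth, the SD in bulls was 0.467 (95.1% of genes lower), and without 2632 that in heifers was 0.732 (98.5% of genes lower). Whether the spread differed between the sexes was not tested.

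**Figure D3:**
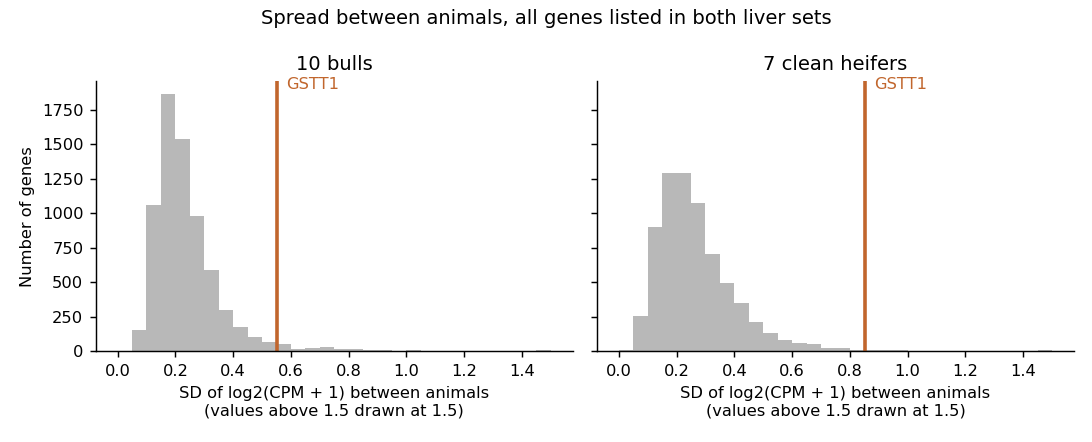
Number of genes (vertical axis) by SD of log2(CPM + 1) between animals (horizontal axis) in the 10 bulls and the 7 clean heifers, with the SD of *GSTT1* as a line. The line stands in the upper tail in both, at 0.553 in bulls and 0.853 in heifers.

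Genes whose levels followed *GSTT1* were ranked by Pearson's r of log2 values over the 17 clean samples with sex means removed. Being picked for likeness, they are a description with no test. Of 7044 genes, 111 had an r of at least 0.7 in size, 42 positive and 69 negative. The count was 40 without heifer 2632, 57 in CPM as deposited and 321 with the means of the 4 sex and RFI groups removed. The highest r was 0.84 for ENSBTAG00000006021, with 0.78 in bulls and 0.94 in heifers, but 0.11 in bulls once the RFI group means were removed, and the next was 0.84 for ENSBTAG00000046746. The lowest was -0.84 for ENSBTAG00000022461, with -0.82 in bulls (-0.70 with RFI group means removed) and -0.87 in heifers, followed by -0.82 for ENSBTAG00000005136. The 5 highest values ran from 0.80 to 0.84 and the 3 lowest from -0.84 to -0.81. The files do not pair these identifiers with names.

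Samples share their depth and processing across all genes, and with 7 animals large values of r are common. In heifers 18.7% of all genes had an r with *GSTT1* of at least 0.7 in size, against 2.39% in the 10 bulls. Genes chosen in bulls were therefore looked up in heifers, which had no part in the choice. The 10 genes with the highest r in bulls, 0.83 to 0.88, had a median r of 0.37 in heifers, and 9 of the 10 were positive. The 10 genes with the lowest r in bulls, -0.90 to -0.82, had a median of -0.34 in heifers, and all 10 were negative, whereas over all genes the median was -0.01 and 49.4% were positive. Over the 7044 genes, which are not independent replicates, the r values in bulls and in heifers correlated at 0.352.

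The other 10 genes that the study listed for bull liver have names, and their relation to *GSTT1* in bulls is fixed in part by that choice, so it was tested in heifers alone. *LIMS2*, which encodes an adaptor protein of focal adhesions, had an r of 0.64 in bulls and 0.81 in heifers (rho 0.79, n = 7). In heifers *LIMS2* was at 141 CPM in 2632, the animal highest in *GSTT1*, and at 76.8 CPM in 2660, the lowest. *DBP*, a transcription factor gene of circadian output, had an r of 0.66 in bulls and 0.73 in heifers (rho 0.75). *DBP* stood at 112 CPM in 2632 and at 49.2 to 68.6 CPM in the other clean heifers.

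Opposite to *GSTT1* went *ACTA2*, the actin of smooth muscle and activated stellate cells, and *GNPNAT1*, an enzyme of UDP-N-acetylglucosamine synthesis. *ACTA2* had an r of -0.39 in bulls and -0.84 in heifers (rho -0.75), with 17.2 CPM in 2632 and 30.7 to 49.5 CPM in the other clean heifers. *GNPNAT1* had an r of -0.64 in bulls and -0.58 in heifers. In bulls these 4 relations lay largely between the RFI groups. With the group means removed, r in bulls was -0.34 for *LIMS2*, 0.59 for *ACTA2* and 0.14 for *GNPNAT1*, each of the opposite sign, and 0.18 for *DBP*. In heifers it kept its sign, with 0.90 for *LIMS2*, 0.98 for *DBP*, -0.87 for *ACTA2* and -0.66 for *GNPNAT1*. By exact permutation over all orders of the 7 heifers, the p of r was 0.0272 for *LIMS2*, 0.0371 for *DBP*, 0.0135 for *ACTA2* and 0.170 for *GNPNAT1*. That of rho was 0.0480 for *LIMS2* and 0.0663 for the other three. Adjusted over the 10 genes, no relation passed the threshold of 0.1, the lowest adjusted p being 0.124 for r and 0.166 for rho (exact permutation tests). These relations rested in large part on heifers 2632 and 2660, and without both r was 0.33 for *LIMS2*, 0.28 for *DBP* and -0.51 for *ACTA2*.

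**Figure D4:**
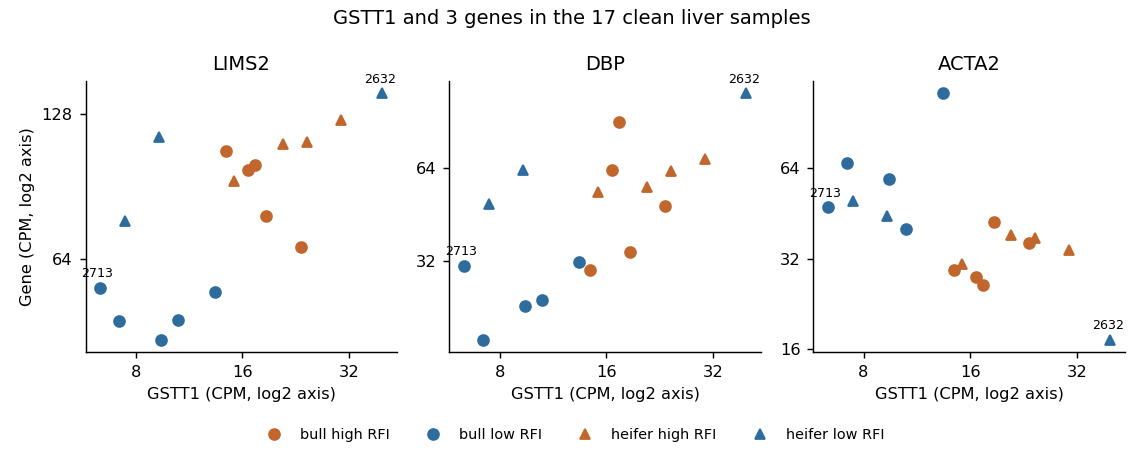
*LIMS2*, *DBP* and *ACTA2* (vertical axes) against *GSTT1* (horizontal axis) in the 17 clean liver samples, in CPM on log2 axes, with bulls as circles, heifers as triangles and the RFI groups by colour. Heifer 2632 stands at the far right of each panel, at 141 CPM of *LIMS2*, 112 CPM of *DBP* and 17.2 CPM of *ACTA2*.

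With no RFI group means removed, the remaining 6 genes had an r of opposite sign in bulls and in heifers. They include *HSPA5*, the main chaperone of the endoplasmic reticulum, its partner *DNAJB11*, *HYOU1*, *MANF* and *CRELD2*, which encode further proteins of that compartment induced by unfolded proteins, and *GMPPB*, which makes GDP-mannose for glycosylation. Their r with *GSTT1* was -0.65 to -0.40 in bulls and 0.13 to 0.57 in heifers. In bulls the negative values too lay between the RFI groups, for with the group means removed they were 0.04 to 0.42. The same removal gave -0.24 to 0.63 in heifers, with -0.02 for *HSPA5* and -0.24 for *HYOU1*, so the signs were not firm. Without bulls 2713 and 2669, and with group means kept, r in bulls was -0.88 to -0.78. Without heifers 2632 and 2660, r in heifers was -0.10 for *CRELD2* and positive for the others. In heifers the lowest adjusted p among the 6 was 0.304 by the exact permutation test. The difference between the sexes was not tested.

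**Figure D5:**
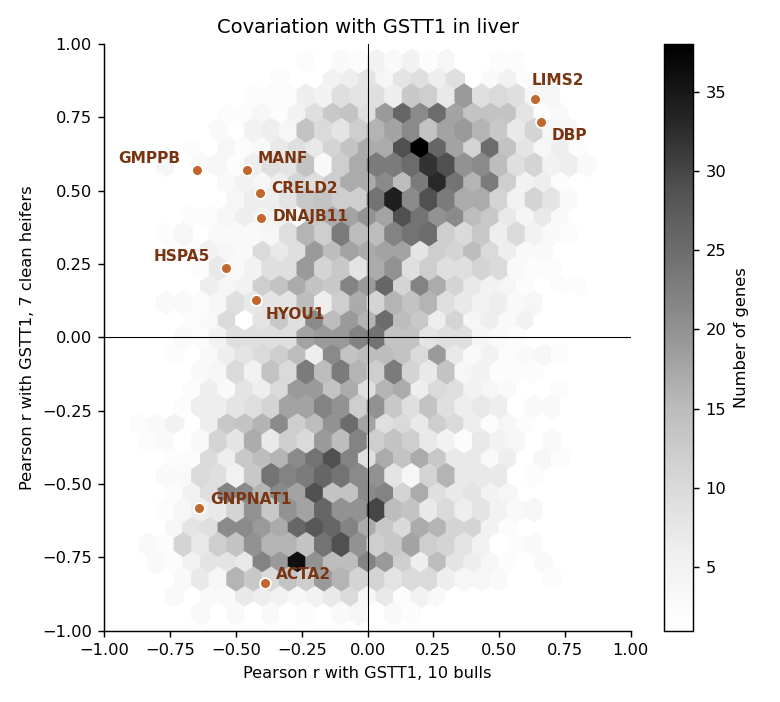
Pearson's r with *GSTT1* in 10 bulls (horizontal axis) and in 7 clean heifers (vertical axis), with the 7044 genes as hexagons shaded by number and the other 10 genes that the study listed for bull liver as labelled points. *LIMS2* and *DBP* lie at the upper right, *ACTA2* and *GNPNAT1* at the lower left, and the other 6 genes at the upper left.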

How the data were processed

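RNA was sequenced by the authors as single-end reads of mRNA libraries. Per the labels and the study's methods, reads were aligned to UMD3.1 with STAR 2.5.1 and counted with HTSeq, and CPM per gene were deposited for part of the genes. The bull muscle files, which end in 1359 repeated rows that were left out, were read only to see whether they list *GSTT1*. As CPM are not counts, values of log2(CPM + 1) after TMM scaling (30% of fold changes and 5% of levels trimmed) were fitted by limma 3.58.1 (R 4.3.3, variance trend on), in place of the study's edgeR test. A minimum of 1 CPM in 5 samples, or in the smaller group, removed no gene. Adjusted p-values follow Benjamini and Hochberg. Single values were tested by exact two-sided permutation in Python 3.11.15.

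The CPM of a sample were whole multiples of 1 step, to within 0.000275 of a read, which gave the depth of each liver sample, 2368340 to 60929308 reads (up to 35691049 in clean samples). Replicates are different animals, and none of the 136 pairs of clean samples agreed within sampling noise. Their kinship is not given, and per the paper no sire served both the high and the low RFI dams. The tests treat the animals as independent. Whether family went along with RFI group was not tested. The scripts were tested on simulated data. The gene, the samples set apart, the lists and the rule for naming genes were chosen with earlier results of these data known. Named are *GSTT1*, the genes of highest and lowest r (2 at either end by identifier) and, added after seeing the data, the other 10 genes the study listed for bull liver. As 0 of the identifiers matched the RefSeq table used, the lists by symbol, cell type markers and neighbouring genes were not analysed here. Alternatives were other scalings, pseudocounts of 0.1 and 5 CPM, the filter left out or set to 10 reads, tag style, the samples set apart, and each animal left out.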

Additional observations from a re-analysis of the deposited data

How the results depend on the processing

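The direction of the RFI difference in bulls, in heifers and in both sexes together held under all alternatives run on the clean samples, which gave -0.92 to -0.66 in bulls, -0.59 to -0.26 in heifers and -0.78 to -0.54 in both, none of them called. With the samples set apart the values were -1.16 in heifers and -1.01 in both, but 2 of those 3 samples are of low RFI and hold little liver signal, so these values say nothing of the direction. With 1 animal left out at a time the values ran from -0.997 to -0.73 in bulls, from -1.26 to -0.08 in heifers and from -1.003 to -0.59 in both. Only leaving out heifer 2632 turned a call, that over both sexes (-1.003). Without heifer 2660 the heifer value was -0.08 and without L59 -0.21. The difference between the sexes in the effect of RFI ran from -0.41 to 0.78 with 1 animal left out, and was -0.31 with the samples set apart included. The level in heifers minus bulls was 0.14 to 0.61 with 1 animal left out and -0.19 with the samples set apart, where 17 genes were called in place of 277. Fits with fewer samples called 0 to 7 genes in bulls (7 without 2713), 0 to 2 in heifers and 0 to 4 for the sexes' difference. The count of 111 genes that followed *GSTT1* was 321 with the means of the 4 groups removed, 57 in CPM as deposited, and, chosen after seeing the data, 40 to 148 with heifer 2632 or bull 2713 left out (40 without 2632). The causes were not tested. The SD in bulls was 0.467 to 0.617 and in heifers 0.732 to 0.934 over its alternatives.

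No paired analysis was possible because the liver groups compared share no animal and no replicate numbers from the labels, and the animals sampled in both tissues have no *GSTT1* value in muscle. The planned count tests (edgeR, DESeq2) were not run, although reads of the listed genes were recovered for depth and intervals, so their result is not known. The planned muscle and tissue comparisons were not run, as *GSTT1* is not listed in muscle. Depth limits a single value most in bull 2713.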

Other observations

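The level of *GSTT1* was set against the log2 depth of the samples. In the 7 clean heifers r was 0.54 (exact permutation p = 0.211) and rho 0.64 (exact permutation p = 0.139), and r was 0.63 without the 2 animals farthest from the median of *GSTT1*. In the 10 bulls r was 0.45 (p = 0.203, 100000 permutations) and rho -0.01 (permutation p = 1.000), and r was -0.32 without the 2 farthest, so that the value in bulls rested on them.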
